A study of Mus musculus with 6 samples.

Results

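The genes described here are 8 members of the machinery that makes and reshuffles disulfide bonds in the endoplasmic reticulum (ER): the protein disulfide isomerases P4hb, Pdia3, Pdia4, Pdia5 and Pdia6, the thioredoxin-domain protein Txndc5, the oxidase Ero1a, and Fkbp11. Fkbp11 encodes an ER peptidyl-prolyl isomerase and is therefore neither a disulfide isomerase nor an oxidase. The genes were chosen by symbol, and all non-control probes whose RefSeq accession maps to these symbols were taken. They had 9 probes in all, 2 for Pdia6 and 1 for each of the other genes, among 19122 genes tested.

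The arrays measured RNA of the growth plate, the cartilage through which a long bone lengthens, cut from the tibia by laser microdissection. The mice were untreated C57BL/6J males aged 4 weeks. Each of 3 genotypes had 2 arrays: wild type (WT), knockouts of ATF6a (ATF6aKO, gene Atf6) and knockouts of ATF6b (ATF6bKO, gene Atf6b). Both proteins sit in the ER membrane, are cut when unfolded proteins build up and then act as transcription factors, and the series asks what they do in the growth of long bones. The deleted parts of the genes, the cells that lack them and the number of animals behind the arrays are not given in the labels. A p-value here thus covers the spread from array to array, which may be technical.

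Disulfide bonds form in secreted proteins when a protein disulfide isomerase passes its own bond to a client, and the ER oxidase Ero1a then restores the isomerase. Chondrocytes secrete large amounts of collagen and other matrix proteins, and the product of P4hb is both an isomerase and the shared subunit of the prolyl 4-hydroxylases that modify collagen. Genes of ER folding enzymes are known targets of the unfolded protein response, whose ATF6 arm is read through promoter sequences called ER stress elements.

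The promoters of 4 of the genes are shown because they differ in such sequences. RefSeq's promoter table (build GRCm38.p6) held 11 start sites for the 8 genes, and the 250 bases before each start were searched on both strands for 6 sequences. These were the ER stress element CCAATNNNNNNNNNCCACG, its second form ATTGGNCCACG, the unfolded protein response element TGACGTGG, the cores CCACG and CCAAT, and the hypoxia response core ACGTG. The core CCACG is part of the first 2 and, read on the other strand, overlaps TGACGTGG and can overlap ACGTG. Capitals mark the full element in Pdia6 and Txndc5, and the CCACG and ACGTG cores on either strand in Ero1a and Fkbp11. Pdia6 lies at chr12:17266339-17266588 on the plus strand. The others lie on the minus strand, Txndc5 at chr13:38527915-38528164, Ero1a at chr14:45318573-45318822 and Fkbp11 at chr15:98727628-98727877. Each is written 5′ to 3′ along its gene and ends at the base before the start.
Pdia6: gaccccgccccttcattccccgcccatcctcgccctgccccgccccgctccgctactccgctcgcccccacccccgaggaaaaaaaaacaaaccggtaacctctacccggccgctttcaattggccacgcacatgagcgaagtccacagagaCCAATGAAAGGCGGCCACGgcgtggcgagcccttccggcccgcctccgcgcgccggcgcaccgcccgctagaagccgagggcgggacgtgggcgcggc
Txndc5: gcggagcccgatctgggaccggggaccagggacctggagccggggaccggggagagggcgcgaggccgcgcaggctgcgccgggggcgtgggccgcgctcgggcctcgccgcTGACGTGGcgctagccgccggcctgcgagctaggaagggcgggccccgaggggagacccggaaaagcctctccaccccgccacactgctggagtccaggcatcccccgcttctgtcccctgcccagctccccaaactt
Ero1a: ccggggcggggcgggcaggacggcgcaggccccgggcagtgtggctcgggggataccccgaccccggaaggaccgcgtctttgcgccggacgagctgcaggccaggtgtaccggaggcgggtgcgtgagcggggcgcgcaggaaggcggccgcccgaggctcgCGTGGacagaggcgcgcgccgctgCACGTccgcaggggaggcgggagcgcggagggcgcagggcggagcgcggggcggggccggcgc
Fkbp11: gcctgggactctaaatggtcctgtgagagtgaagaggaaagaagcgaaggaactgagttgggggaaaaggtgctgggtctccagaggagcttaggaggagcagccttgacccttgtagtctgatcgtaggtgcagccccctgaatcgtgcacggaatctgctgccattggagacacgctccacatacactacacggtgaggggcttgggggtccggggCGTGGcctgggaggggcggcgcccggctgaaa

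Pdia6 was the only one of the 8 genes whose windows held the full ER stress element, at bases -98 to -80 from the start. That element was found in 37 of 32851 promoter windows of all genes (0.113%). The second form was in none of the 11 windows and in 0.0304% of all windows. Txndc5 held TGACGTGG at -138 to -131 in 1 of its 3 windows, against 0.563% of all windows. The short cores were common: CCACG was in 28.3% of all windows and in windows of 6 of the 8 genes, CCAAT in 33.8% and in those of 5 genes, and ACGTG in 16.6% and in those of 5 genes. Ero1a held CCACG on the other strand at -87 to -83 and the hypoxia core at -63 to -59. Pdia3 and Pdia4 held CCAAT and none of the other sequences. A match is a string of letters and not a measured binding site, and the arrays carry no measurement of factor binding.

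The design limits every comparison with WT. The 4 knockout arrays were on 1 slide and read in the red channel. Both WT arrays were on another slide read in a single channel. The scanner column of that channel is named green, although the labels give Cy5 for all 6 samples. Red values of the knockouts were thus set against that column, and slide, channel and genotype cannot be told apart in comparisons with WT. The comparison of the knockouts with each other lies within 1 slide. Over all probes the correlation among knockout arrays was r = 0.9704 to 0.9881, and that between knockout and WT arrays 0.8508 to 0.9057. Between 86.9% and 96.7% of non-control spots were well above background, and the number of arrays limits the precision of each value. All 9 probes were well above background on all 6 arrays and none was saturated. The targeted genes gave no check of the labels, since it is not known whether their probes lie in the deleted parts, and neither passed as lower in its own knockout. Atf6 differed from WT by -0.15 ± 0.16 (log2, SE) in ATF6aKO and by -0.21 ± 0.16 in ATF6bKO (limma adjusted p = 0.498 and 0.355). Atf6b differed from WT by -0.54 ± 0.21 in ATF6bKO and by -0.43 ± 0.21 in ATF6aKO (limma adjusted p = 0.0824 and 0.138). Between the knockouts, ATF6aKO minus ATF6bKO, Atf6 was at 0.06 ± 0.16 and Atf6b at 0.11 ± 0.21 (limma adjusted p = 0.993 and 0.986).

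WT replicate 1 stood apart in markers of bone and blood. Osteoblast and osteocyte markers summed to 84186 on it and to 3726 on WT replicate 2 (normalised intensity on the linear scale), erythroid markers to 33497 and 6053, osteoclast markers to 21614 and 6918, and hypertrophic chondrocyte markers to 20156 and 4248. Without Col1a2, Hba-a1, Itgb3 and Col10a1 these sums were 3332 to 17942, 2575 to 4867, 3724 to 18629 and 3960 to 19526 in WT. With all markers, the osteoblast, osteoclast and erythroid sums of the 4 knockout arrays all lay below those of WT replicate 1. Of the 8 genes, 7 were also higher on WT replicate 1 than on WT replicate 2. Results are therefore also given without this array, and the part of these markers in the results was not tested.

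Relative to WT, 4 of the 8 genes were higher in ATF6aKO and 3 in ATF6bKO, and none was lower in either. In ATF6aKO these were Pdia3, Fkbp11, Ero1a and Pdia4, and in ATF6bKO they were Ero1a, Pdia3 and Fkbp11. The call was a limma adjusted p under 0.05 over all genes. Among all 19122 genes, 20.3% were called higher and 22.3% lower in ATF6aKO, and 17.3% higher and 20.3% lower in ATF6bKO. All 8 log2 differences were positive in ATF6aKO, with a median of 1.04, whereas 48.5% of all genes were positive and their median was -0.03. In ATF6bKO 5 of the 8 were positive with a median of 0.42, against 46.7% of all genes and a median of -0.05. The result depended on the WT array kept. Without WT replicate 1 the log2 differences in ATF6aKO ran from 0.76 (Txndc5) to 3.45 (Pdia3). Without WT replicate 2 they ran from -0.44 (P4hb) to 2.35 (Fkbp11), with Txndc5 at -0.43 and Pdia4 at 0.64. In ATF6bKO, Pdia3, Ero1a and Fkbp11 were at 2.18, 1.80 and 1.54 without WT replicate 1. Without WT replicate 2 they were at 0.79, 1.86 and 1.02, and P4hb and Txndc5 at -1.90 and -1.31. Fewer of the 8 genes passed in ATF6bKO without ATF6bKO replicate 1. Leaving out any 1 array of a knockout also lowered the number of all genes called in that knockout against WT. This fall was largest for ATF6aKO replicate 2 in ATF6aKO and for ATF6bKO replicate 1 in ATF6bKO. Both comparisons used the same WT arrays.

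**Figure D1:**
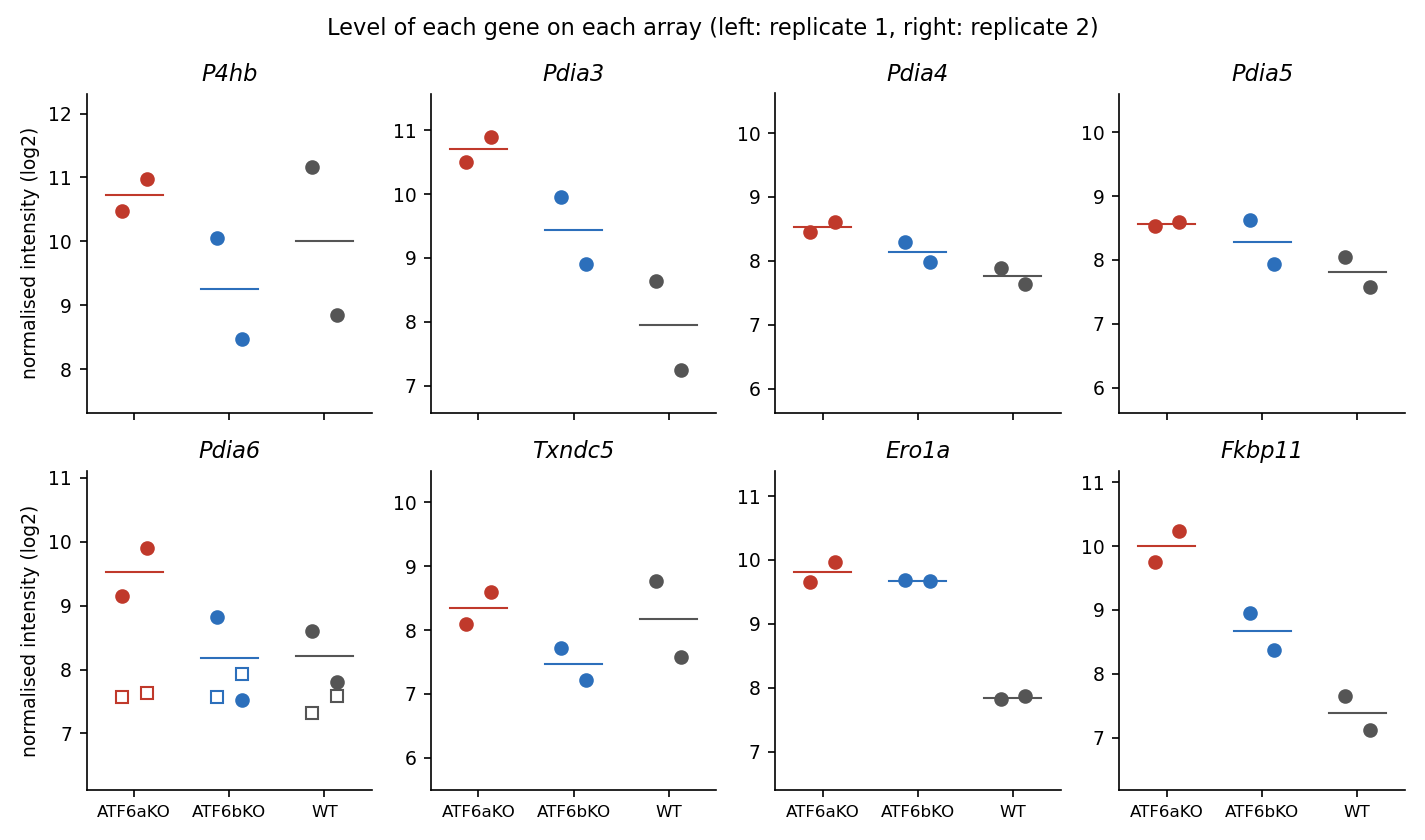
Normalised log2 intensity (y axis) of each gene on each array, by genotype (x axis); filled circles are the probe used for the gene, open squares the second Pdia6 probe, and bars the mean of 2 arrays. Ero1a lies between 9.65 and 9.97 on the 4 knockout arrays and at 7.82 and 7.87 on the WT arrays, while P4hb spans 8.85 to 11.16 within WT.

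Ero1a encodes the oxidase that hands electrons from the isomerases to oxygen. Its normalised log2 intensity was 9.65 and 9.97 on the ATF6aKO arrays (replicates 1 and 2), 9.68 and 9.67 on the ATF6bKO arrays, and 7.82 and 7.87 on the WT arrays. The knockout arrays all lay above both WT arrays, and the ATF6bKO values fell between the ATF6aKO ones. Ero1a rose 3.91-fold in ATF6aKO (log2 difference 1.97 with an SE of 0.17 over 2 arrays per genotype; limma adjusted p = 0.000615). It rose 3.56-fold in ATF6bKO (1.83 ± 0.17; limma adjusted p = 0.000783). Over the 6 fits that left out 1 array these folds stayed between 3.50 and 4.36 and between 3.49 and 3.62, and each of them passed. Neither passed with values from the authors' deposited table (log2 differences 0.1 and 0.3), where the knockout columns follow the green channel. Before background correction the median spot intensities of Ero1a were 748.5 and 848.5 on the ATF6aKO arrays, 657 and 584 on the ATF6bKO arrays and 290 and 249 in WT.

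Fkbp11 encodes a prolyl isomerase anchored in the ER membrane. Its level was 9.76 and 10.23 on the ATF6aKO arrays, 8.95 and 8.38 on the ATF6bKO arrays and 7.65 and 7.12 in WT. The 3 genotypes did not overlap, with ATF6aKO highest and WT lowest. Fkbp11 rose 6.10-fold in ATF6aKO (log2 difference 2.61 ± 0.28, SE; limma adjusted p = 0.000828) and 2.43-fold in ATF6bKO (1.28 ± 0.28; limma adjusted p = 0.0106). Without ATF6bKO replicate 1 the rise in ATF6bKO was 1.99-fold (limma adjusted p = 0.0805), and neither this nor the authors' deposited table (log2 difference 2.2) gave a call. Without WT replicate 1 the log2 differences of Fkbp11 were 2.87 in ATF6aKO and 1.54 in ATF6bKO, and those of Ero1a were 1.94 and 1.80. Between the knockouts Fkbp11 had the smallest p of the 8 genes, ranking 46 of 19122, with a log2 difference of 1.33 ± 0.28 (limma adjusted p = 0.625).

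Pdia3 encodes ERp57, the isomerase that works with the lectin chaperones calnexin and calreticulin on glycoproteins. Its level was 10.51 and 10.90 on the ATF6aKO arrays, 9.96 and 8.91 on those of ATF6bKO, and 8.64 and 7.25 in WT. As for Fkbp11, the genotypes followed the order ATF6aKO, ATF6bKO, WT without overlap. Pdia3 rose 6.75-fold in ATF6aKO (log2 difference 2.76 ± 0.49, SE; limma adjusted p = 0.00414) and 2.80-fold in ATF6bKO (1.48 ± 0.49; limma adjusted p = 0.0460). The WT arrays lay 1.39 log2 units apart, so that leaving out WT replicate 1 gave a rise of 10.9-fold in ATF6aKO, and leaving out WT replicate 2 gave 4.17-fold. The rise in ATF6bKO was 4.54-fold without WT replicate 1, and without WT replicate 2 it was 1.73-fold and did not pass (limma adjusted p = 0.128). It also did not pass without ATF6bKO replicate 1 (1.94-fold; limma adjusted p = 0.254), without either ATF6aKO array (limma adjusted p = 0.0823), with the scanner's processed signal (0.0828) or with a trended and robust variance (0.141).

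Pdia4 encodes ERp72, an isomerase with an additional thioredoxin-like domain. Its level was 8.45 and 8.61 on the ATF6aKO arrays, 8.30 and 7.98 on the ATF6bKO arrays and 7.89 and 7.63 in WT. It kept the same order without overlap, over a range of only 0.98 log2 units. Pdia4 rose 1.70-fold in ATF6aKO (log2 difference 0.77 ± 0.19, SE; limma adjusted p = 0.0147), and in ATF6bKO its log2 difference was 0.38 ± 0.19 (limma adjusted p = 0.150). The rise in ATF6aKO did not pass without ATF6aKO replicate 2 (1.61-fold; limma adjusted p = 0.0805), without WT replicate 2 (1.55-fold; limma adjusted p = 0.0562) or in the authors' deposited table (log2 difference 2.4; adjusted p = 0.151). Without WT replicate 1 the log2 differences of Pdia4 were 0.90 and 0.51, of which the first passed. Pdia3, Pdia4 and Fkbp11 were the 3 of 8 genes with ATF6aKO above ATF6bKO above WT on every array, a pattern that 6.57% of all genes showed.

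Pdia5 encodes PDIR, a less studied isomerase. Its level was 8.53 and 8.60 on the ATF6aKO arrays, 8.63 and 7.93 on the ATF6bKO arrays and 8.04 and 7.58 in WT. Both ATF6aKO arrays lay above both WT arrays, and ATF6bKO overlapped with each of the other genotypes. The log2 difference was 0.75 ± 0.26 (SE) in ATF6aKO (limma adjusted p = 0.0511) and 0.47 ± 0.26 in ATF6bKO (limma adjusted p = 0.196). The ATF6aKO value passed with 75th percentile scaling (limma adjusted p = 0.0322) and with a filter asking for signal on all 6 arrays (0.0433). It also passed with a trended and robust variance (0.0362), the replicate block (0.0372) and the authors' deposited table (0.00425). It did not pass with the scanner's processed signal (0.188), the mean over probes, no filter or all kept probes fitted singly. Without WT replicate 1 its log2 difference was 0.98, and without WT replicate 2 it was 0.53. Leaving out ATF6aKO replicate 1 or 2 gave 0.79 or 0.72, and leaving out either ATF6bKO array gave 0.75.

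Pdia6 encodes the isomerase P5, which associates with the chaperone BiP. Its brighter probe measured 9.15 and 9.91 on the ATF6aKO arrays, 8.83 and 7.53 on the ATF6bKO arrays and 8.60 and 7.81 in WT. The ATF6aKO arrays were the highest, and the WT values lay between those of ATF6bKO. The log2 difference from WT was 1.32 ± 0.46 (SE) in ATF6aKO (limma adjusted p = 0.0525) and -0.03 ± 0.46 in ATF6bKO (limma adjusted p = 0.966). The second probe measured 7.56 and 7.64 on the ATF6aKO arrays, 7.57 and 7.93 on the ATF6bKO arrays and 7.32 and 7.59 in WT, and its arrays overlapped between WT and ATF6bKO and between WT and ATF6aKO. Fitted alone, it differed from WT by 0.15 ± 0.19 in ATF6aKO and 0.30 ± 0.19 in ATF6bKO (limma adjusted p = 0.548 and 0.250). The probes of Pdia6 therefore differed in sign between the knockouts, at 1.35 for the brighter and -0.15 for the second, and neither passed. The ATF6aKO value of Pdia6 passed with 75th percentile scaling (limma adjusted p = 0.0396), with the filter on all 6 arrays (0.0422), with the mean of both probes (0.0349), without WT replicate 1 (0.0123), without either ATF6bKO array (0.0291) and in the authors' deposited table (0.00121). Without WT replicate 1 the log2 differences of Pdia6 were 1.72 in ATF6aKO and 0.37 in ATF6bKO.

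P4hb encodes the founding protein disulfide isomerase. Its level was 10.47 and 10.98 on the ATF6aKO arrays, 10.05 and 8.47 on the ATF6bKO arrays and 11.16 and 8.85 in WT. The WT arrays held the highest and the second lowest of the 6 values, so WT overlapped with both knockouts. The WT spots read 3514.5 and 549.5 before background correction, a gap present in the scanner output. The log2 difference from WT was 0.72 ± 0.75 (SE) in ATF6aKO and -0.74 ± 0.75 in ATF6bKO (limma adjusted p = 0.463 and 0.464). Without WT replicate 2 these were -0.44 and -1.90, and without WT replicate 1 they were 1.88 and 0.41, so the sign in each comparison depended on which WT array was used. Of these fits, ATF6aKO without WT replicate 1 (limma adjusted p = 0.0119) and ATF6bKO without WT replicate 2 (0.0149) passed.

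Txndc5 encodes ERp46, an isomerase with several thioredoxin domains. Its level was 8.10 and 8.59 on the ATF6aKO arrays, 7.72 and 7.21 on the ATF6bKO arrays and 8.78 and 7.58 in WT. As with P4hb, WT replicate 1 was the highest array and ATF6bKO replicate 2 the lowest. The log2 difference from WT was 0.17 ± 0.39 (SE) in ATF6aKO and -0.71 ± 0.39 in ATF6bKO (limma adjusted p = 0.751 and 0.184). Without WT replicate 2 the ATF6bKO value was -1.31 and passed (limma adjusted p = 0.00644), and the ATF6aKO value was -0.43. Without WT replicate 1 they were -0.12 in ATF6bKO and 0.76 in ATF6aKO, and neither passed (limma adjusted p = 0.776 and 0.0531).

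**Figure D2:**
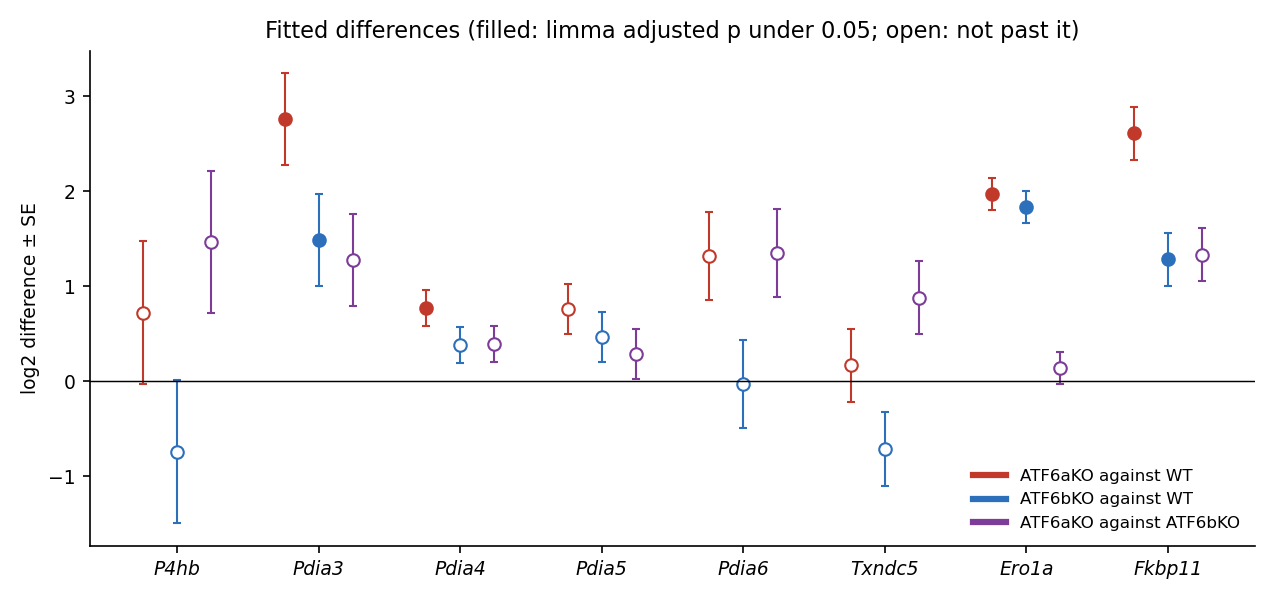
Fitted log2 difference (y axis) of each gene in 3 comparisons (colours), with bars of 1 SE; filled circles passed a limma adjusted p under 0.05 and open circles did not. Ero1a is near 2 in both comparisons with WT and at 0.14 between the knockouts, and all 8 differences of ATF6aKO from ATF6bKO are above 0.

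Between the knockouts, all 8 genes were higher in ATF6aKO than in ATF6bKO on the brightest probe, and none of these differences passed. Limma called 0 of 19122 genes at an adjusted p under 0.05 (0% higher and 0% lower), with 1169 genes (6.11%) and 3 of the 8 at an unadjusted p under 0.05. Those 3 were Fkbp11, Pdia6 (1.35 ± 0.46; limma adjusted p = 0.701) and Pdia3 (1.27 ± 0.49; limma adjusted p = 0.752). For the other 5 the limma adjusted p lay between 0.819 and 0.966. The log2 differences of P4hb (1.47 ± 0.75), Txndc5 (0.88 ± 0.39), Pdia4 (0.39 ± 0.19), Pdia5 (0.29 ± 0.26) and Ero1a (0.14 ± 0.17) were also above 0. The median over the 8 genes was 1.08, against -0.005 over all genes, of which 49.1% were positive. The arrays of the 2 knockouts did not overlap in 6 of the 8 genes, the exceptions being Pdia5 and Ero1a, whereas 36.9% of all genes did not overlap. With each array left out in turn no gene of the 8 passed, and the sign turned only for Pdia5 without ATF6bKO replicate 2 (-0.062) and for Ero1a without ATF6aKO replicate 2 (-0.022).

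**Figure D3:**
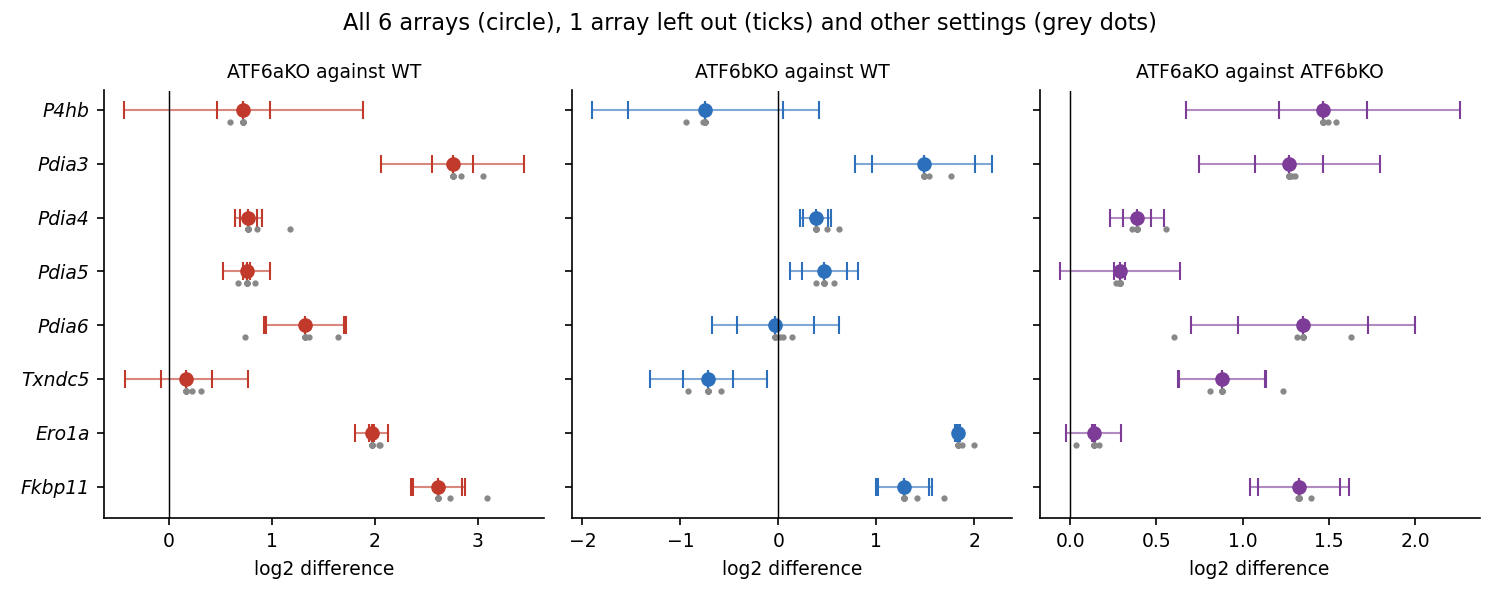
Log2 difference (x axis) of each gene (rows) in the 3 comparisons (panels): circles are the fit of all 6 arrays, ticks the fits without 1 array, and grey dots the other settings except the authors' deposited table. The ticks of Ero1a span 1.80 to 1.86 in ATF6bKO against WT, while those of P4hb span -1.90 to 0.41.

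The genes also moved together between the arrays of a genotype. ATF6aKO replicate 2 was above replicate 1 in 8 of the 8 genes, with a median gap of 0.43 log2 units. ATF6bKO replicate 2 was below replicate 1 in 8 of 8, with a median of -0.63, and WT replicate 2 was below replicate 1 in 7 of 8, with a median of -0.66. Ero1a was the exception in WT, where its arrays differed by 0.05. Over all genes the same medians were -0.01, -0.005 and 0.08. Of the 8 genes, 7 shared all 3 directions, as did 12.7% of all genes. This pattern was picked after the values were seen.

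Markers of chondrocytes, the cells of the growth plate, moved in a similar way. The summed level of 15 chondrocyte markers, all measured, was 115712 and 131009 on the ATF6aKO arrays, 67101 and 32988 on the ATF6bKO arrays and 18621 and 23925 in WT (normalised intensity on the linear scale). In ATF6aKO 13 of the 15 rose and 1 fell relative to WT, and in ATF6bKO 7 rose and 2 fell. Between the knockouts 15 of 15 were higher in ATF6aKO and none passed. All 15 were lower on ATF6bKO replicate 2 than on replicate 1, and 12 were higher on ATF6aKO replicate 2, which are the directions of the 8 genes. In WT 12 of 15 were higher on replicate 2, the direction opposite to 7 of the 8 genes. In WT 7 of 8 hypertrophic markers were, by contrast, higher on replicate 1. The part of chondrocyte content in these differences was not tested, and in such bulk tissue fewer cells of a type and less RNA per cell cannot be told apart. Sox9 was not well above background in WT, while Col2a1, the defining cartilage collagen, was measured on every array.

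Markers of other cell types in or near the growth plate were summed in the same way, and 1 bright marker can carry such a sum. The marker named for each list is the one with the highest mean log2 level over the 6 arrays, which is not the brightest on every array. For B and plasma cells, which also express many of these enzymes, the sum of 15 of 15 markers was 10681 to 11547 in ATF6aKO, 11114 to 11531 in ATF6bKO and 6604 to 7268 in WT. Without Prdm1 the other 14 summed to 3196 to 3267, 3099 to 3236 and 3032 to 3167. In each knockout 3 of the 15 rose and 2 fell relative to WT, with medians of -0.08 in ATF6aKO and -0.14 in ATF6bKO. Macrophage markers (9 of 10) summed to 11097 to 15659, 13434 to 14157 and 10543 to 10785 in the same order, and without Csf1r to 3281 to 3455, 2838 to 3068 and 3207 to 3535. Of these 9, 1 rose and 6 fell in ATF6aKO, and 1 rose and 5 fell in ATF6bKO, with medians of -0.75 in both.

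Osteoblast and osteocyte markers (9 of 12; Col1a2) summed to 4203 to 4592 in ATF6aKO and 2749 to 3099 in ATF6bKO, and 6 of the 9 had their highest value on WT replicate 1. None rose and 4 fell in each knockout. Erythroid markers (8 of 11; Hba-a1) summed to 1384 to 1691 and 1729 to 1941, and 1 rose and 4 fell in each knockout. Hbb-bt was not well above background in either knockout, nor was Hbb-bs in ATF6aKO or Hbb-b2 in ATF6bKO. Osteoclast markers (9 of 9; Itgb3) summed to 6550 to 7402 and 6718 to 6842, and 1 rose and none fell in each knockout. Hypertrophic chondrocyte markers (8 of 8; Col10a1) summed to 10284 to 22783 and 3804 to 11045, with 4 higher and 1 lower in ATF6aKO and 3 higher and 1 lower in ATF6bKO. Col10a1 itself was at 12.29 to 13.87 on the ATF6aKO arrays, 10.74 to 12.48 on the ATF6bKO arrays and 8.17 to 9.30 in WT (log2). In ATF6bKO all 8 of these markers were higher on replicate 1. Neutrophil markers (9 of 10; Mmp8) summed to 1756 to 2108, 1815 to 1821 and 1432 to 1555 in the order ATF6aKO, ATF6bKO, WT. Endothelial markers (10 of 10; Kdr) summed to 2336 to 2813, 2598 to 2707 and 4886 to 5172, and none rose and 5 and 3 fell. Skeletal muscle markers (11 of 11; Tnni2) summed to 3772 to 5134, 3389 to 4454 and 3295 to 3336. The part of these cells in the results was not tested.

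Other genes of the pathway were taken by function. Their counts stand beside 20.3% of all genes called higher and 22.3% called lower in ATF6aKO. In ATF6bKO these shares were 17.3% and 20.3%. The same shares apply to the counts of markers above. Of 18 other thiol isomerases and thioredoxin-like proteins of the ER, 17 were measured (Tmx1 was not), and 2 rose and 2 fell in ATF6aKO, with a median of 0.13. Erp29, a redox-inactive relative of the isomerases, rose 2.92-fold in ATF6aKO (limma adjusted p = 0.0107). It read 9.34 and 10.19 on the ATF6aKO arrays, 9.28 and 8.41 on the ATF6bKO arrays and 8.31 and 8.12 in WT. Its rise was 2.18-fold without ATF6aKO replicate 2 and 1.31-fold with the mean over its probes, and neither passed (limma adjusted p = 0.0772 and 0.109). Erp27, which binds Pdia3 and has no active site cysteines, fell 3.01-fold in ATF6aKO and 2.10-fold in ATF6bKO (limma adjusted p = 0.00531 and 0.0269). The fall of Erp27 in ATF6bKO did not pass without ATF6bKO replicate 1 (1.78-fold), ATF6bKO replicate 2 (2.48-fold) or WT replicate 2 (1.68-fold). Pdilt, the testis isomerase, fell 1.72-fold and 1.59-fold (limma adjusted p = 0.00891 and 0.0184). The second of these did not pass without ATF6bKO replicate 1 (1.43-fold). Pdilt had low levels, from 6.40 to 6.71 on the knockout arrays and 7.25 and 7.20 in WT. Tmx4 had an adjusted p of 0.0489 in ATF6aKO that was lost in 5 of the 6 fits without an array. In ATF6bKO no gene of this list rose and 2 fell, with a median of 0.11. The number past the threshold in ATF6aKO was 2 without ATF6aKO replicate 2. In ATF6bKO it was 0 without ATF6bKO replicate 1, 1 without ATF6bKO replicate 2 and 4 without WT replicate 1.

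Of 10 other ER oxidants and peroxidases, all measured, 4 rose and 1 fell in ATF6aKO (median 0.43), and 1 rose and 1 fell in ATF6bKO (median -0.02). Ero1b, the paralog of Ero1a, was at 8.65 and 8.76 on the ATF6aKO arrays, 8.54 and 9.04 on the ATF6bKO arrays and 8.82 and 8.86 in WT. Its log2 differences from WT were -0.13 ± 0.20 and -0.05 ± 0.20 (limma adjusted p = 0.615 and 0.857). Vkorc1l1, a vitamin K epoxide reductase that can oxidise isomerases, rose 1.99-fold in ATF6aKO and 2.12-fold in ATF6bKO (limma adjusted p = 0.0122 and 0.0101). These rises did not pass without ATF6aKO replicate 1 (1.74-fold) and without ATF6bKO replicate 2 (1.74-fold), respectively. Prdx4, the ER peroxiredoxin, rose 1.54-fold in ATF6aKO (limma adjusted p = 0.0211) and was at a log2 difference of 0.02 in ATF6bKO. It did not pass without ATF6aKO replicate 2 (1.42-fold) or WT replicate 2 (1.49-fold). Qsox2, a sulfhydryl oxidase, fell 1.61-fold and 1.76-fold (limma adjusted p = 0.0214 and 0.0127), the first lost without ATF6aKO replicate 2 or WT replicate 2 and the second without ATF6bKO replicate 2. With 1 array left out the number past the threshold in ATF6aKO ranged from 1 (without ATF6aKO replicate 2) to 5; it was 2 without WT replicate 2, and 3 without ATF6aKO replicate 1 or either ATF6bKO array. In ATF6bKO it was 0 without ATF6bKO replicate 2.

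Of 7 other ER prolyl isomerases, 3 rose and none fell in ATF6aKO (median 0.44), and 1 rose and 1 fell in ATF6bKO (median -0.10). Fkbp10, a collagen chaperone also called FKBP65, rose 8.64-fold in ATF6aKO and 4.32-fold in ATF6bKO (limma adjusted p = 0.00188 and 0.00894). It read 11.12 and 11.10 on the ATF6aKO arrays, 10.85 and 9.38 on the ATF6bKO arrays and 8.32 and 7.69 in WT, with no overlap between genotypes. Without ATF6bKO replicate 1 its rise in ATF6bKO was 2.60-fold, and without ATF6bKO replicate 2 it was 7.19-fold. Ppic, an ER cyclophilin, rose 5.43-fold in ATF6aKO (limma adjusted p = 0.00950), which became 9.72-fold when WT replicate 1 was left out, 3.03-fold when WT replicate 2 was, and not past the threshold without ATF6aKO replicate 2 (4.73-fold). Fkbp9 rose 3.82-fold (limma adjusted p = 0.0209), and became 6.02-fold when WT replicate 1 was left out, 2.42-fold when WT replicate 2 was, and not past the threshold without ATF6aKO replicate 2. Fkbp2 fell 1.88-fold in ATF6bKO (limma adjusted p = 0.0340), and passed in only 1 of the 6 fits without an array, that without WT replicate 2. Ppib, cyclophilin B of the collagen 3-hydroxylase complex, had log2 differences of 0.15 and -1.08 and did not pass (limma adjusted p = 0.763 and 0.0565). The number past the threshold in ATF6aKO was 1 without ATF6aKO replicate 2 and 5 without WT replicate 2. In ATF6bKO it was 4 without WT replicate 2, and 1 without ATF6bKO replicate 2 or either ATF6aKO array.

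A further 10 genes were taken as partners of the set, among them subunits, chaperones and a folding sensor, and their binding was not measured here. Of these 10, 5 rose and 1 fell in ATF6aKO (median 1.03), and 1 rose and 1 fell in ATF6bKO (median 0.19). Mttp, which forms the microsomal triglyceride transfer protein with P4hb, rose 2.37-fold and 2.60-fold (limma adjusted p = 0.00320 and 0.00270). With 1 array left out these folds were 2.02 to 2.79 and 2.21 to 3.05. Its level was low in WT, at 6.68 and 6.21, against 7.72 and 7.66 in ATF6aKO and 7.96 and 7.68 in ATF6bKO. P4ha2, a catalytic subunit of collagen prolyl 4-hydroxylase, rose 4.93-fold in ATF6aKO (limma adjusted p = 0.00898). Its paralog P4ha1 had a log2 difference of -0.16, and its paralog P4ha3 fell 1.51-fold in ATF6aKO (limma adjusted p = 0.0259). With 1 array left out the fall of P4ha3 was 1.47-fold to 1.54-fold. Canx, encoding calnexin, rose 2.49-fold in ATF6aKO (limma adjusted p = 0.0155), and Calr, encoding calreticulin, had log2 differences of 0.27 and -0.87. Hspa5, encoding BiP, rose 6.24-fold in ATF6aKO (limma adjusted p = 0.0171), or 12.5-fold when WT replicate 1 was left out and 3.12-fold when WT replicate 2 was. Hspa5 did not pass without ATF6aKO replicate 1 or 2, and P4ha2 (4.20-fold) and Canx (2.04-fold) did not pass without ATF6aKO replicate 2. Uggt1, the glycoprotein folding sensor, rose 2.33-fold (limma adjusted p = 0.00971), from a low level of 6.33 and 6.41 in WT. With the mean over its probes its fold was 1.01. It also did not pass without ATF6aKO replicate 2 (2.22-fold). With a trended and robust variance Hspa5, P4ha2, Ppic and Fkbp9 did not pass (limma adjusted p = 0.113, 0.0502, 0.0609 and 0.0955). In ATF6bKO Tapbp, encoding the tapasin that holds Pdia3 in the MHC class I loading complex, fell 1.56-fold (limma adjusted p = 0.0461), and this was lost in fits without either ATF6bKO array or WT replicate 1. Without ATF6aKO replicate 2 fewer of the 10 genes passed in ATF6aKO, and fewer of all genes passed in that fit as well. The same holds for the calls lost without this array in the groups above. Between the knockouts no gene of the 4 groups passed, with medians of 0.02, 0.18, 0.9998 and 0.59 in the order given.

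**Figure D4:**
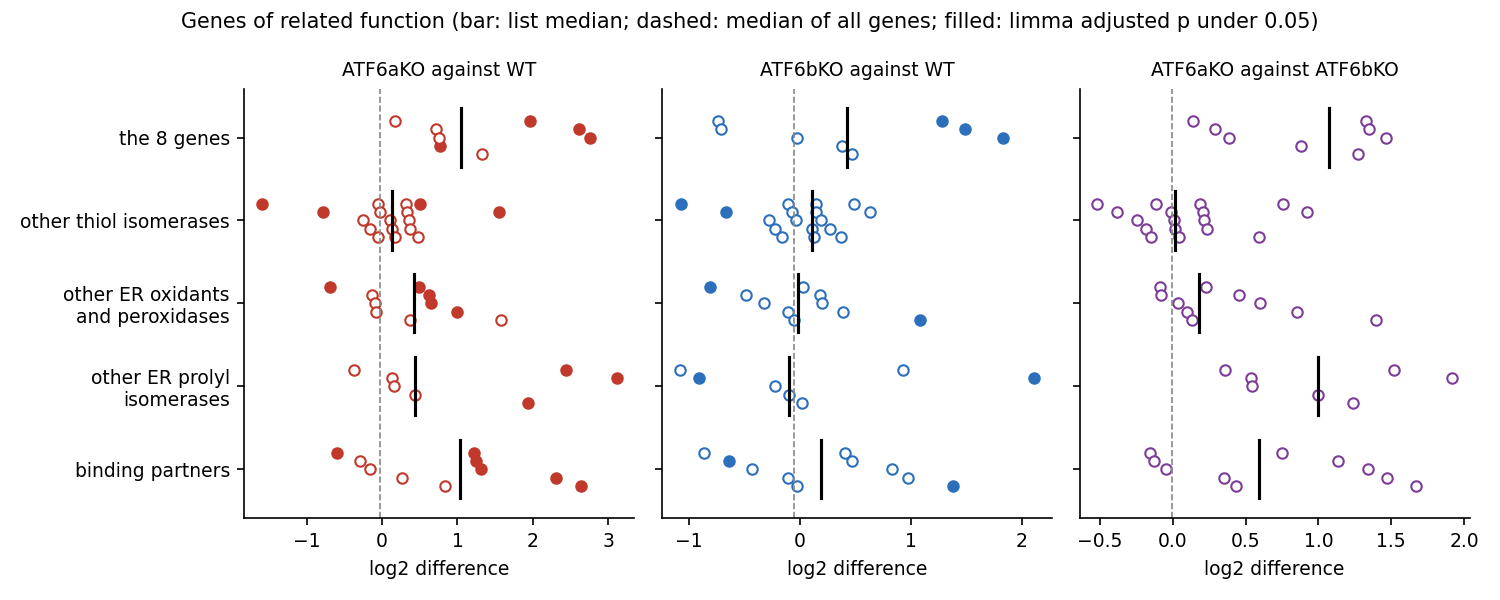
Log2 difference (x axis) of the 8 genes and of 4 groups of related genes (rows) in the 3 comparisons (panels); each circle is a gene, filled where the limma adjusted p was under 0.05, and bars are medians. In ATF6aKO against WT the median is 1.04 for the 8 genes, 1.03 for the binding partners and 0.13 for the other thiol isomerases, with a dashed line at -0.03 for all genes.

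The genes differed in how alike their profiles were. Likeness was measured as the root mean square distance between levels over the 6 arrays after centring each gene on its mean. Within the set Pdia4 and Pdia5 lay closest (0.134 log2 units), and Pdia3 and Fkbp11 were each other's nearest member (0.300). P4hb and Txndc5 were also each other's nearest (0.524), while Ero1a was nearest to Fkbp11 (0.542) and Pdia6 to Pdia5 (0.517). The most distant pair was P4hb and Ero1a (1.34). Many other genes lay closer than these nearest members. Among all genes the nearest member ranked 21 for Pdia5, 25 for Pdia3, 45 for Fkbp11 and 64 for P4hb. It ranked 150 for Pdia4, 440 for Pdia6, 2174 for Ero1a and 2860 for Txndc5. The distance is not scaled to the range of a gene, which was smallest for Pdia4 (0.98) and Pdia5 (1.05). Over all genes tested, the nearest to Ero1a was Gab3 (0.0558), to Fkbp11 Rpl22 (0.121), to Pdia3 Rack1 (0.126), to Pdia4 Cul4a (0.0225), to Pdia5 Hacd3 (0.0796), to Pdia6 Ccdc80 (0.127), to P4hb Maged1 (0.138) and to Txndc5 Hnrnpu (0.107). With 6 arrays and this many genes, a small distance is a description of these arrays only.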

How the data were processed

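An array of 62976 spots was scanned for each of 6 samples, from cDNA labelled with Cy5 after amplification of 150 ng RNA, per the labels' protocols. The deposited scanner files hold spot intensity values, which per the submitters' processing notes were read with Agilent Feature Extraction 10.7.1.1. The authors' deposited value table is on a log2 scale, with column medians from -0.5 to 0.2314. Its centring is not given in the sources used here. Its knockout columns follow the green channel (r from 0.9984 to 0.999 with green differences between arrays, 0.03806 to 0.08689 with red), so it served only as an alternative.

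Median spot and background intensities (red on knockout arrays, the only channel on WT arrays) were corrected with normexp (offset 50), put on the log2 scale and quantile normalised over 6 arrays, without control or outlier spots. Of 55681 probes, 26490 matched 1 symbol through RefSeq accessions. A probe was kept if some genotype had it well above background on each of its arrays, and the brightest gave each gene's value. All 3 comparisons were fitted with limma 3.58.1 in R 4.3.3 (lmFit, eBayes) and adjusted by Benjamini-Hochberg over 19122 genes, with a threshold of 0.05. The text names all 8 genes and every probe of theirs, Atf6 and Atf6b, the brightest marker of each cell type, and the nearest genes by profile. It also names genes from among the 4 of smallest p in each related group and comparison, though not all of them. Ero1b, P4ha1, Hspa5, Sox9, Hbb-bt, Hbb-bs and Hbb-b2 lie outside that rule and were named after their values were seen. Among genes within it that were passed over, Gpx7 rose 1.57-fold and Sumf1 1.40-fold in ATF6aKO (limma adjusted p = 0.0327 and 0.0430). With 1 array left out these folds were 1.32 to 1.86 and 1.31 to 1.49. Markers of other lists that were not well above background in some genotype were not all named. The fit was tested on simulated data. The genes, lists and tests were chosen with earlier results of these data known.

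Alternatives were the scanner's processed signal, 75th percentile scaling, no filter or a filter on all 6 arrays, the mean over probes, trended and robust variance, the authors' table, the replicate number as a block, knockout arrays alone, all kept probes fitted singly, and leaving out each array, where a genotype with 1 array is assumed to vary like the others. Same-numbered arrays of different genotypes did not deviate together (r = -0.156, -0.0743 and 0.197), so the numbers were not taken as pairs.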

Additional observations from a re-analysis of the deposited data

Results flagged for a closer look

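The green channel of the 4 knockout arrays carries no labelled sample, since the labels name Cy5 alone, and the comparisons above do not use it. Of the 9 probes, 4 were nevertheless well above background there on all 4 arrays (44.4%), against 3930 of 55681 probes of the array (7.06%). The median green processed signal was 70.4 for P4hb, 28.3 for Pdia3, and 382.5 and 24.3 for the brighter and the second probe of Pdia6. For the brighter Pdia6 probe the green signal ranged from 299 to 529 and the red from 99.5 to 866, and green exceeded red on 2 of the 4 arrays. For P4hb the green signal ranged from 50.1 to 93.2 and the red from 239 to 1972. For Ero1a green reached at most 3.02, with red from 535 to 733. The source of the green signal was not tested.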

How the results depend on the processing

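The number of the 8 genes past the threshold in ATF6aKO against WT was 4; it was 3 to 7 with 1 array left out and 4 to 6 under the other settings. In ATF6bKO against WT it was 3, all higher, and 2 to 4 under the other settings, and it changed when an array was left out. The 4 were those of the authors' deposited table, all higher, and shared 1 gene with the 3. Without WT replicate 2, P4hb and Txndc5 were at -1.90 and -1.31 in ATF6bKO, against -0.74 and -0.71 with all 6 arrays. Between the knockouts the number was 0 in the main fit and under the other settings. With the replicate block the count was 5 in ATF6aKO, where Pdia5 passed (limma adjusted p = 0.0372), and the block changed no other call of the 8 genes; it gave 7594 and 6630 genes past the threshold against WT in place of 8157 and 7190.

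Signs turned as follows. In ATF6aKO against WT, with 1 array left out, P4hb ranged from -0.44 to 1.88 and Txndc5 from -0.43 to 0.76. In ATF6bKO against WT, P4hb ranged from -1.90 to 0.41 and Pdia6 from -0.68 to 0.62; Pdia6 was 0.017 with the processed signal, 0.049 with 75th percentile scaling and 0.135 with the mean over probes. Between the knockouts Pdia5 ranged from -0.062 to 0.63 and Ero1a from -0.022 to 0.29. In the authors' deposited table the values against WT were 3.1 for P4hb, 8 for Pdia6 and 1.55 for Txndc5 in ATF6bKO, and between the knockouts -0.15 for P4hb, -0.8 for Pdia4, -0.2 for Pdia6 and -0.2 for Ero1a. Among related genes that table turned Pdilt (1.85 and 0.8), Vkorc1l1 (-1.2 and -0.25), Fkbp2 (3.65) and Tapbp (1.15). That table's knockout columns follow another channel; the cause of the other changes was not tested.

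Scaling by the 75th percentile moved the median of all genes from -0.03 to 0.13 in ATF6aKO and from -0.05 to 0.16 in ATF6bKO against WT. The split of calls was then 5163 higher and 3601 lower, and 4828 higher and 3053 lower, in place of 3886 and 4271, and 3313 and 3877. With the authors' deposited values it was 6893 and 2824, and 6964 and 2930, with a median of 0.85.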
